A study of Homo sapiens with 8 samples.

Results

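The nuclear genes that make, stabilise and degrade mitochondrial RNA were examined in RKO cells, an established human colon carcinoma line. The genes were 10 of the 57992 in the files, chosen by function: SLIRP, LRPPRC, MTPAP, PNPT1, SUPV3L1, TFAM, POLRMT, TFB2M, TEFM and MTERF1. They were chosen with earlier results of the same contrast in view, in which SLIRP transcripts were lower and mitochondrially encoded transcripts higher after A20 siRNA. The fold changes and adjusted p-values given for them below therefore describe that contrast and are no independent test of it.

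RKO cells received either a control siRNA (4 samples) or an siRNA against A20 (4 samples), and all 8 samples were exposed to wnt3a, a ligand of the Wnt pathway, at 50 ng/mL over 24 hours. A20 is the ubiquitin-editing enzyme encoded by TNFAIP3. The study asked which transcripts A20 controls after wnt3a. No sample without wnt3a entered the comparison, so it shows the difference between the siRNAs under wnt3a and not the response to wnt3a. The sequence of the A20 siRNA is not given in the sources used here, and neither is whether the samples of a group came from separate experiments, so the p-values cover only the spread between these samples, which may be technical.

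Human mitochondria hold a small circular genome that encodes subunits of the respiratory chain and the ATP synthase, together with the rRNAs and tRNAs needed to translate them. Every protein that transcribes this genome and handles its RNA is encoded in the nucleus. The polymerase POLRMT starts transcription with TFAM, which bends and packages the DNA, and TFB2M, which opens it. TEFM lets the polymerase run on, and MTERF1 binds a termination site behind the rRNA genes. The long transcripts are cut, the mRNAs are given poly(A) tails by MTPAP, and a complex of LRPPRC with the small RNA-binding protein SLIRP keeps them stable. The helicase SUPV3L1 and the ribonuclease PNPT1 degrade them.

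The total counts were between 21226451 and 34194273 per sample, and gene levels are expressed in CPM, which divides a gene's count by the TMM-adjusted total of its sample in units of 1000000 counts. A20 siRNA was compared with control siRNA in 13412 genes with edgeR (quasi-likelihood) and p-values adjusted over all of them by Benjamini-Hochberg. At an adjusted p-value under 0.05, 82 genes were lower and 85 were higher, in all 1.25% of the genes tested. Correcting each sample for exon length gave 250 lower and 88 higher, and leaving out 1 sample gave 6 to 430 lower and 6 to 567 higher. TNFAIP3 itself stood between 4.92 and 5.83 CPM in the control samples and between 3.01 and 3.47 CPM in the A20 siRNA samples, a fitted log2 ratio of A20 siRNA to control (log2 fold change) of -0.71 ± 0.10 (SE, adjusted p = 0.00258). Of the epithelial markers KRT18, KRT8 and EPCAM were present in every sample, whereas KRT19 and CDH1 had no read in any sample. Of the colon markers CDX2 was present, at 15.6 to 18.1 CPM, VIL1 reached 1 read and the other 3 had none, so the line carried only part of an epithelial or colonic profile. The summed markers of fibroblasts reached 0.143 CPM and those of endothelium 0.0998 CPM, and of the leukocyte markers only CD68 exceeded 1 read.

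The promoters of 4 of the genes are shown because SLIRP was the member that differed most, LRPPRC is its partner, and POLRMT and TFB2M are the polymerase and its initiation factor. Each window runs from 250 bases before to 50 bases after the annotated start (RefSeq, GRCh38.p14), 5′ to 3′ on the strand of the gene, and capitals mark matches to the motifs named below.
SLIRP: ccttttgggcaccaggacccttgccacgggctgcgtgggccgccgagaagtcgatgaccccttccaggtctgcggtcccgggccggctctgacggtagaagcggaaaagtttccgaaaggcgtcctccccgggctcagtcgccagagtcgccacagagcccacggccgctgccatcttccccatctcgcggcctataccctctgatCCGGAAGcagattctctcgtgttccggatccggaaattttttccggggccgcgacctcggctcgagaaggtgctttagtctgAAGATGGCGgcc
LRPPRC: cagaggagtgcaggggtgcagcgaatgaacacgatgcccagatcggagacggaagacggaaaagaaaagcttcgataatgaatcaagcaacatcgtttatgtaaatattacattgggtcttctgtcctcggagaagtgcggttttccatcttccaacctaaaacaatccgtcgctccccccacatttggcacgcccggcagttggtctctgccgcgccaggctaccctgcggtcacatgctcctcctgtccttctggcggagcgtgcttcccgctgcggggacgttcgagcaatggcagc
POLRMT: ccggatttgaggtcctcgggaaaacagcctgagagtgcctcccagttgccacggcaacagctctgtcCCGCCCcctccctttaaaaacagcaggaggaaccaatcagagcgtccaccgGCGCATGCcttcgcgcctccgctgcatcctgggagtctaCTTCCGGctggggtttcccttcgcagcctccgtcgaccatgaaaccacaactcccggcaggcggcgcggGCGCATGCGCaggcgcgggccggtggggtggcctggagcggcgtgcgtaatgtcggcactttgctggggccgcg
TFB2M: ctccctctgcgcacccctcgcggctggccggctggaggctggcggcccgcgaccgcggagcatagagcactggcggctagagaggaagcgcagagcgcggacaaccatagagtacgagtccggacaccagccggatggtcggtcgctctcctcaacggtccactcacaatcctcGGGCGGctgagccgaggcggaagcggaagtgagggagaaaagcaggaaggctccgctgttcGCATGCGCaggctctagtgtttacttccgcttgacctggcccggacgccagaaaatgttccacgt

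These windows are chr14:77707821-77708120 on the plus strand for SLIRP, and on the minus strand chr2:43995940-43996239 for LRPPRC, chr19:633488-633787 for POLRMT and chr1:246566212-246566511 for TFB2M. All 10 genes had a window, and 7 motifs were searched on both strands. The NRF1 motif GCATGCGC, named after an activator of mitochondrial genes, was found in MTPAP, POLRMT and TFB2M, 3 of the 10 windows, against 3.27% of 27305 promoters of the same length. POLRMT had it at bases 119, 227 and 229 of its window, of which the last 2 overlap. The GABP motif CCGGAAG was found in SLIRP, POLRMT, TEFM and MTERF1, against 10.7% of all promoters. In SLIRP it began at base 207, and the YY1 motif AAGATGGCG, present in 1.85% of promoters, began at base 289. The SP1 motif GGGCGG was found in 4 windows, with 5 matches in TFAM, 3 of them overlapping by 1 base, and in 44.6% of all promoters. No window held the E-box CACGTG, the TCF/LEF motif CTTTGAT or the NFkB motif GGGANTTTC. These were found in 7.43%, 2.64% and 1.3% of all promoters, so their absence from 10 windows is no result. The LRPPRC window held none of the 7. Most of that window lies inside the span given below for LRPPRC, which reaches 43996226, so another start would give another window. The same holds for MTPAP, which has an NRF1 match. Its window, chr10:30349229-30349528 on the minus strand, lies wholly inside its span, which reaches 30374448. A match is a run of letters and not a measured binding site.

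The levels of the genes spanned a wide range. As CPM per kilobase of the canonical transcript, averaged over all 8 samples, SLIRP was highest at 119 (96.4 to 135.4), followed by LRPPRC at 68.6 (68.2 to 69.0). SUPV3L1 came next with 35.7, then TFB2M with 32.5, PNPT1 with 30.5, TFAM with 29.2, POLRMT with 26.8, MTPAP with 20.1 and TEFM with 12.3 CPM per kilobase. Of these neighbours in the order only PNPT1 and TFAM overlapped in their ranges over the 8 samples. The length chosen decides this order. The merged exons of LRPPRC in the annotation cover 34689 bases against 6603 in its canonical transcript, and those of SLIRP cover 2631 against 376. Per kilobase of merged exons TFB2M was highest at 32.5 and LRPPRC was near the bottom at 13.1, with SLIRP between them at 17.0. The canonical lengths were taken up after these values were seen.

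MTERF1 (chromosome 7, 91692008 to 91880702, GRCh38) had no read in any of the 8 samples. At these depths a count of 0 allows up to 3 reads, which is 0.0877 to 0.141 CPM. It was the only one of the 10 genes that was not tested. Its neighbours were measured: AKAP9 had 1429 to 2723 reads per sample and FZD1 had 159 to 248. PTTG1IP2, farther out on the other side of FZD1, had no read. These neighbours were named after their values were seen. Whether the annotation used for counting bears on the 0 of MTERF1 was not tested, and the limit in CPM holds only if reads from the gene would have been counted. The related genes MTERF3 and MTERF4, which act on mitochondrial ribosome assembly, stood at 60.1 to 63.0 CPM and 27.5 to 29.9 CPM, and MTERF2 at 7.83 to 9.88 CPM. An annotated processed copy, MTERF1P1, also had no read.

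**Figure D1:**
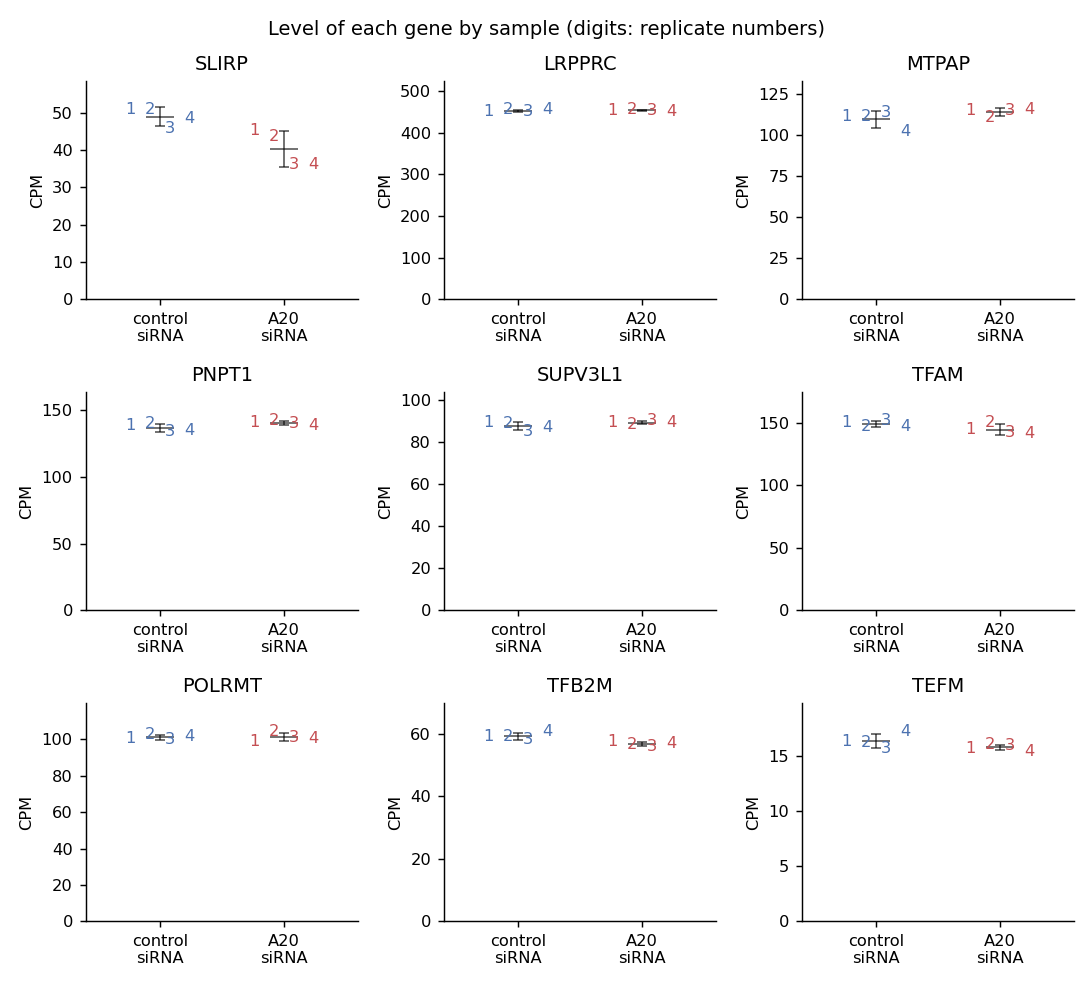
Level of each of the 9 genes with reads, in CPM from 0 upwards, in the 4 control siRNA (blue) and 4 A20 siRNA (red) samples. Digits are replicate numbers, and the black bars are the mean and SD of each group (n = 4). SLIRP shows the largest difference of means relative to its level, with all A20 siRNA samples at 36.2 to 45.2 CPM and all control samples at 45.8 to 50.9 CPM.

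Of the 9 genes tested, 1 was lower at an adjusted p-value under 0.05, SLIRP, where 0.611% of all genes were lower, and none was higher, where 0.634% were. At an unadjusted p-value under 0.05 there were 2, SLIRP and TFB2M, where 16.2% of all genes were. SLIRP (ENSG00000119705.9, chromosome 14, 77708071 to 77761104 on the plus strand) encodes the small protein that binds LRPPRC and mitochondrial mRNA. It was measured at 50.9, 50.9, 45.8 and 48.4 CPM in control replicates 1 to 4, and at 45.2, 43.8, 36.3 and 36.2 CPM in A20 siRNA replicates 1 to 4. The groups did not overlap, though A20 siRNA replicate 1 came within 1 CPM of control replicate 3. On average SLIRP stood at 49.0 ± 2.46 CPM in the control and at 40.4 ± 4.79 CPM in the A20 siRNA samples (SD, n = 4 each). The comparison gave a fitted log2 ratio of -0.27 ± 0.06 (SE, adjusted p = 0.0337). A20 siRNA replicates 3 and 4 lay apart from replicates 1 and 2. The spread within the A20 siRNA group was 11.9% of its mean, the largest of the 9 genes in either group. SLIRP rests on 771 to 1551 reads per sample. In bulk RNA, fewer cells with the transcript and less of it per cell cannot be told apart.

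LRPPRC (ENSG00000138095.18, chromosome 2, 43886224 to 43996226), the large pentatricopeptide protein that forms the complex with SLIRP, was the steadiest of the 9 genes with reads. LRPPRC had 451.3, 455.2, 450.4 and 455.0 CPM in the control samples and 452.9, 455.7, 454.2 and 450.7 CPM in the A20 siRNA samples. The groups overlapped throughout, and the highest sample was 1.01 times the lowest. Its fitted log2 ratio was 0.0013 ± 0.02 (SE, adjusted p = 0.984). For every 100 reads on LRPPRC there were 10.2 to 11.3 reads on SLIRP in the control samples and 7.99 to 9.99 in the A20 siRNA samples. The means of this ratio were 10.8 ± 0.521 and 8.91 ± 1.04 (SD, n = 4 each), and the groups did not overlap. With LRPPRC nearly constant, the ratio restates the difference in SLIRP and is no further result.

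The poly(A) polymerase MTPAP (chromosome 10, 30309801 to 30374448) had 111.1, 111.3, 113.7 and 102.3 CPM with control siRNA and 115.1, 110.5, 115.0 and 115.6 CPM with A20 siRNA. The groups overlapped, with a fitted log2 ratio of 0.06 ± 0.03 (SE, adjusted p = 0.362). The exonuclease PNPT1 (chromosome 2, 55634061 to 55693863) had 138.6, 140.0, 133.6 and 134.6 CPM with control siRNA and 140.8, 142.0, 140.0 and 138.6 CPM with A20 siRNA. The groups shared the range from 138.6 to 140.0 CPM, and the fitted log2 ratio was 0.04 ± 0.02 (SE, adjusted p = 0.440). Its helicase partner SUPV3L1 (chromosome 10, 69180234 to 69209099) stood between 85.3 and 89.2 CPM with control siRNA and between 88.4 and 90.3 CPM with A20 siRNA, a fitted log2 ratio of 0.03 ± 0.03 (SE, adjusted p = 0.645). Neither degradation gene nor MTPAP passed the threshold.

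The initiation genes did not pass it either. TFB2M (chromosome 1, 246540561 to 246566261) had 59.3, 59.0, 58.1 and 60.7 CPM with control siRNA and 57.4, 56.5, 55.8 and 56.8 CPM with A20 siRNA. These groups did not overlap, which also held for SLIRP and for 7.61% of all tested genes. The log2 fold change of TFB2M was -0.06 (standard error 0.03), with an adjusted p-value of 0.278. TFAM (chromosome 10, 58385345 to 58399220) stood between 146.8 and 151.8 CPM with control siRNA and between 141.1 and 150.4 CPM with A20 siRNA, a fitted log2 ratio of -0.04 ± 0.02 (SE, adjusted p = 0.413). POLRMT (chromosome 19, 617221 to 633537) stood between 99.7 and 102.4 CPM and between 98.8 and 104.2 CPM, a fitted log2 ratio of 0.0015 ± 0.02 (SE, adjusted p = 0.986). The elongation factor TEFM (chromosome 17, 30897336 to 30906238), with 15.6 to 17.2 CPM in the control and 15.42 to 15.97 CPM in the A20 siRNA samples, had a fitted log2 ratio of -0.05 ± 0.05 (SE, adjusted p = 0.689). Over the 9 genes 4 fold changes were negative and 5 positive, and their median of 0.0013 lay beside 0.0027 for all genes tested.

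Several transcripts that these proteins act on were higher where SLIRP was lower. Of the 13 mitochondrially encoded protein-coding genes 8 were higher after A20 siRNA and none was lower at an adjusted p-value under 0.05. Over all genes 0.634% were higher. The median log2 fold change of the 13 was 0.19. Those that passed encode subunits of complex I (MT-ND5 0.28, MT-ND2 0.27, MT-ND6 0.27, MT-ND1 0.25 and MT-ND4 0.25), cytochrome b (MT-CYB 0.19), cytochrome c oxidase (MT-CO1 0.19) and the ATP synthase (MT-ATP6 0.24), with adjusted p-values between 0.00737 and 0.0467. They too were known when the genes were chosen. The number that were higher depended on single samples. It was 1 without A20 siRNA replicate 3, 4 without A20 siRNA replicate 4, 4 without control replicate 4 and 5 without control replicate 2, and 4 with DESeq2. The median stayed positive, between 0.14 without control replicate 2 and 0.22. Their share of all counts was 1.41%, 1.17%, 1.37% and 1.37% in control replicates 1 to 4 and 1.58%, 1.44%, 1.53% and 1.59% in A20 siRNA replicates 1 to 4. Wilson 95% intervals, which cover counting error alone, were at most 0.00531 percentage points to either side. The ranges of the groups did not overlap. Within the A20 siRNA group replicate 1, with the most SLIRP, had a share close to that of replicate 4, with among the least. The rRNA MT-RNR2 had 800.8 to 1285 CPM in the control and 933.5 to 1397 CPM in the A20 siRNA samples, and the groups overlapped. The rRNA MT-RNR1 had 223.2 to 602.5 CPM and 227.6 to 677.3 CPM, with wide spread in both groups. Its fitted log2 ratio was 0.50 ± 0.27 (SE, adjusted p = 0.377, edgeR). The libraries were made by poly(A) capture. The count of a mitochondrial RNA therefore depends on its capture, through a tail or otherwise, as well as on its amount. The strand setting of the counting is not given, so reads from either strand of a gene such as MT-ND6 may be included. Neither point was tested.

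**Figure D2:**
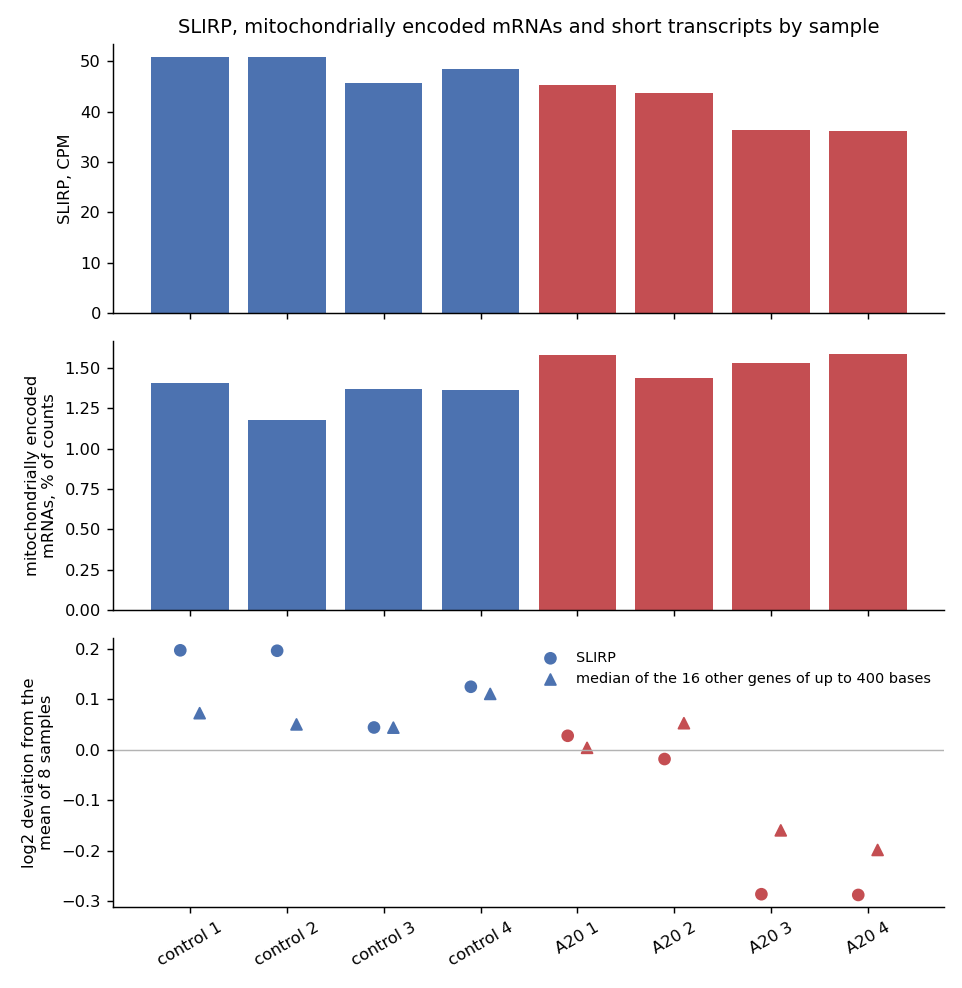
SLIRP in CPM (top) and the share of counts on the 13 mitochondrially encoded protein-coding genes in percent (middle). The bottom panel gives the log2 deviation from the mean of the 8 samples. Circles are SLIRP, and triangles are the median of the 16 other protein-coding genes with canonical transcripts of up to 400 bases. Control siRNA is blue and A20 siRNA red. In A20 siRNA replicates 3 and 4 SLIRP deviated by -0.286 and -0.287 and the short transcripts by -0.159 and -0.198.

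SLIRP has one of the shortest transcripts in the comparison, with 376 bases, and most of the shortest transcripts had lower fitted values after A20 siRNA. Of the tested protein-coding genes 17 had canonical transcripts of up to 400 bases, and 15 of them had negative fold changes, of which SLIRP and RPS29 passed the threshold. The limit of 400 bases was set after the values were seen. The median log2 fold change was -0.17 in these 17 genes, -0.09 from 400 to 600 bases, -0.06 from 600 to 1000, -0.02 from 1000 to 2000, -0.0035 from 2000 to 4000, 0.01 from 4000 to 8000 and 0.04 above 8000 bases. All 13 nuclear genes of up to 400 bases other than SLIRP had negative values, from -0.35 to -0.04 with a median of -0.17, and SLIRP was the fifth lowest of the 17. Among those 13 were the ribosomal protein genes RPS29, RPS21, RPS27 and RPL39 and the mitochondrial genes ROMO1, NDUFB1 and ATP5ME. The 3 mitochondrially encoded genes in this length range, MT-ATP8, MT-ND4L and MT-ND3, had log2 fold changes of -0.23, 0.05 and 0.06. They did not pass the threshold and were the lowest of the 13 mitochondrially encoded protein-coding genes. Their annotated lengths need not be those of the mRNAs that carry them. The neighbouring genes MT-ATP6 and MT-ND4 had 0.24 and 0.25. How reads were divided among neighbouring mitochondrial genes was not tested.

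The short transcripts were lowest in A20 siRNA replicates 3 and 4, as SLIRP was, but the order of the other samples differed. Leaving SLIRP out, the median deviation of the genes of up to 400 bases from their mean over the 8 samples was between 0.0441 and 0.111 on the log2 scale in the control samples. It was 0.0041 and 0.0529 in A20 siRNA replicates 1 and 2, and -0.159 and -0.198 in replicates 3 and 4. Replicate 2 thus lay within the range of the control samples. SLIRP deviated by 0.0280 and -0.0181 in A20 siRNA replicates 1 and 2, below its 0.0444 to 0.197 in the control samples. With a per-sample correction for canonical transcript length in protein-coding genes, added after the data were seen, the log2 fold change of SLIRP was -0.20 (standard error 0.05, adjusted p = 0.0376 with edgeR). With canonical length over all genes it was -0.26 (adjusted p = 0.00554). It was -0.27 with merged exon length (adjusted p = 0.00812), -0.27 with length and GC (adjusted p = 0.00670) and -0.28 with the replicate block added (adjusted p = 9.05e-05), all with edgeR. The corrections that use merged exon length took SLIRP as a gene of 2631 bases and not of 376. They could therefore not correct for a trend at its canonical length. The corrections that use canonical length fitted a smooth trend through genes of all lengths. Only 17 tested protein-coding genes had up to 400 bases, with a median log2 fold change of -0.17. The trend at the length of SLIRP was therefore set mostly by longer genes. Whether it removed the shift of the shortest genes was not tested. The calls of SLIRP after these corrections therefore cannot be read as free of length. What part transcript length has in the lower SLIRP was not tested beyond these values.

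**Figure D3:**
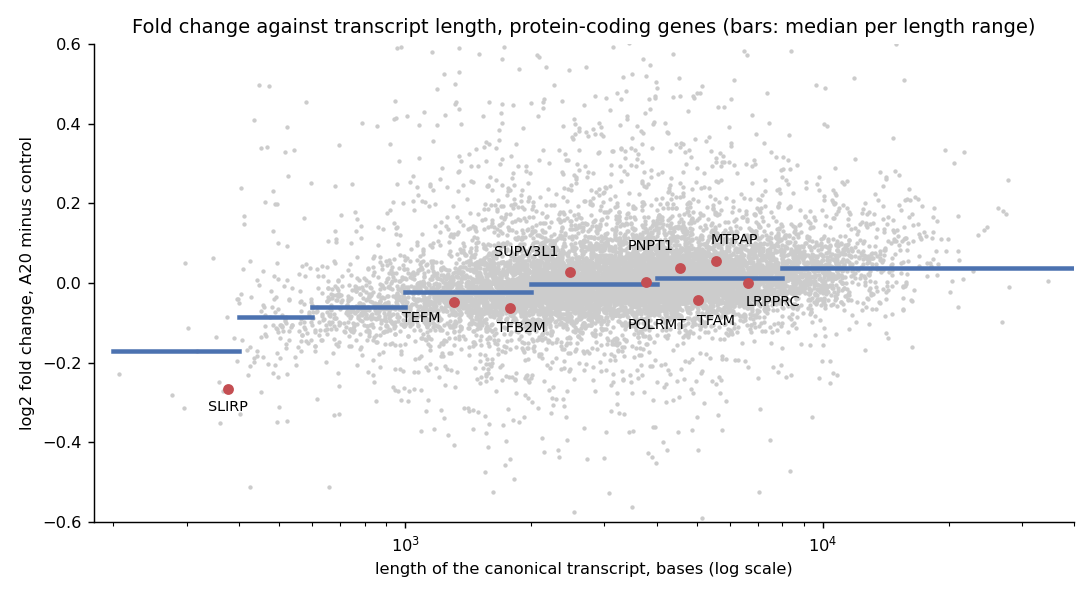
Log2 fold change, A20 siRNA minus control siRNA, against the length of the canonical transcript in bases on a log scale for 11310 tested protein-coding genes (grey, 46 of them outside the vertical axis). Red points are the genes described here and blue bars the median of each length range. SLIRP lies in the shortest range, whose median is -0.17, and the other 8 genes lie between -0.06 and 0.06.

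The genes whose profile over the 8 samples was most like that of SLIRP were NDUFA1, UQCC5 and ULBP1. Likeness was the root mean square difference of centred log2(CPM + 0.5) values, 0.0402, 0.0434 and 0.0568 for these genes. The values were centred on the mean of all 8 samples, so the difference between the groups is part of the likeness. Fold changes near that of SLIRP therefore follow from the selection and are no further result. NDUFA1, a subunit of respiratory complex I, has a canonical transcript of 421 bases, and its fitted log2 ratio was -0.23 ± 0.06 (SE, adjusted p = 0.0562). UQCC5, with a canonical transcript of 1769 bases and 18.5 CPM on average, had a log2 fold change of -0.24 and an adjusted p-value of 0.102. ULBP1 has a canonical transcript of 3211 bases and averaged 1.79 CPM. Its fitted log2 ratio was -0.30 ± 0.15 (SE, adjusted p = 0.336, edgeR). The genes most like LRPPRC were DHX38, ADD1 and MORF4L2, with differences of 0.00746, 0.00807 and 0.00875, which are genes of equally steady level.

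Other annotated genes overlap or resemble several of the genes. SLIRP shares 271 exonic bases with the lncRNA C14orf178, which had at most 2 reads, and 118 bases of its exons overlap SNW1 on the opposite strand. How reads in these bases were counted was not tested. SNW1, a splicing factor, was at 106.9 to 112.0 CPM with a log2 fold change of 0.01 (adjusted p = 0.835). Reads shared between SLIRP and its processed copies SLIRPP1 and SLIRPP2 were not counted, since only uniquely mapped reads were, and the copies themselves had at most 1 read. The processed copies of PNPT1 and TFAM had at most 3 reads, and POLRMTP1 had 1.22 to 2.04 CPM. MTPAP shares 1626 exonic bases with GOLGA2P6 and TEFM 542 with an unnamed lncRNA, ENSG00000275185, neither of which had a read.

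The call of SLIRP depended on single samples. Its log2 fold change stayed between -0.33 and -0.22 in the 8 fits that each left out 1 sample, and 4 of these kept an adjusted p-value under 0.05 with edgeR. The adjusted p-value was 0.117 without control replicate 2, 0.107 without control replicate 4, 0.121 without A20 siRNA replicate 3 and 0.0906 without A20 siRNA replicate 4. With DESeq2 the fitted log2 ratio was -0.28 ± 0.09 (SE, adjusted p = 0.0803). In none of the 19 alternative fits did another of the genes pass, and their lowest adjusted p-value was 0.101, for LRPPRC.

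**Figure D4:**
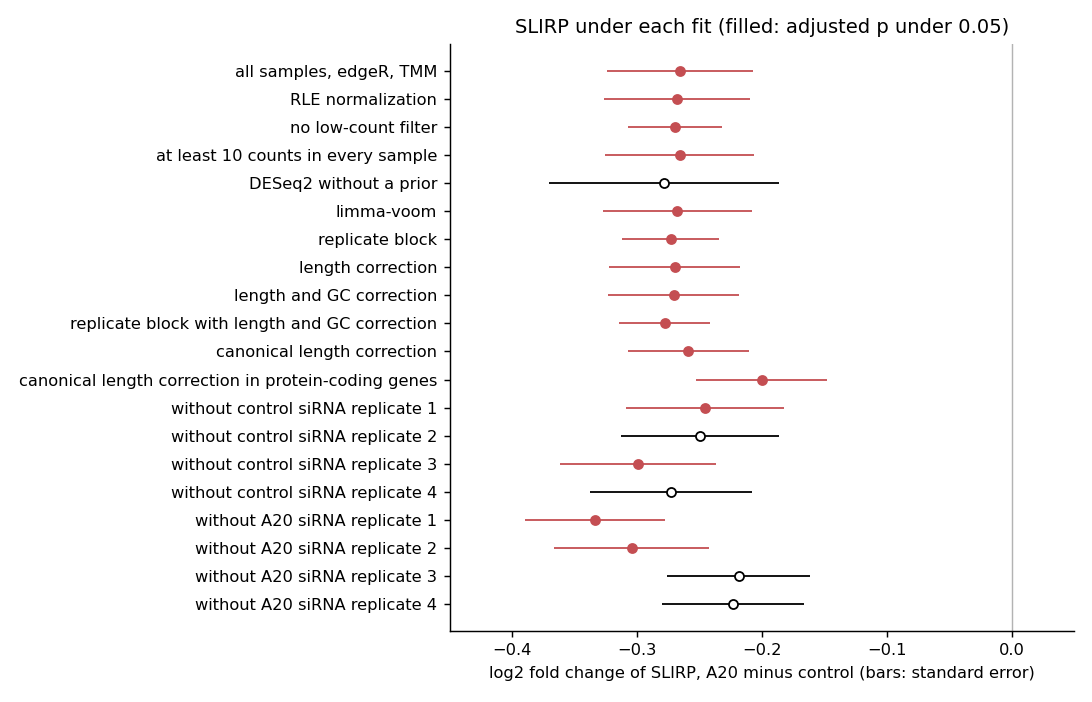
Log2 fold change of SLIRP, A20 siRNA minus control siRNA, with its standard error under each of the 20 fits. Filled red points have an adjusted p-value under 0.05 and open black points do not. All values are negative, and the 5 open points are DESeq2 and the fits without control replicate 2, control replicate 4, A20 siRNA replicate 3 or A20 siRNA replicate 4.

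A wider set of 76 nuclear genes of mitochondrial nucleic acid biology was taken from lists by role, and 75 of them were tested. The coactivator PPARGC1A, with at most 2 reads, was not. None of the 75 was lower or higher at an adjusted p-value under 0.05 by edgeR, DESeq2 or limma-voom. At an unadjusted p-value under 0.05 there were 11, or 14.7%, against 16.2% of all genes tested, 3 of them lower and 8 higher. The fold changes were negative for 28 and positive for 47, with a median of 0.0077, and lay between -0.16 and 0.17. In the 2 genes of smallest p-value on each list the log2 fold changes were as follows.

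Among the 7 regulators of transcription MTERF2 had 0.17 (adjusted p = 0.205) and the protease LONP1, which degrades TFAM, had -0.03 (adjusted p = 0.567). Among 19 genes for RNA processing and the RNA granule, where new transcripts are matured, FASTKD1 had 0.08 (adjusted p = 0.166) and FASTKD2 -0.06 (adjusted p = 0.239). Of the 75 genes 6 did not overlap between the groups, where 7.61% of all genes did not, and these were FASTKD1, FASTKD2, PTCD2, GRSF1, TRUB2 and PPRC1. The ranges in control and A20 siRNA samples were 74.9 to 77.1 and 77.2 to 82.4 CPM for FASTKD1 and 113.1 to 116.5 and 108.3 to 111.9 CPM for FASTKD2. Among 26 genes for the modification of mitochondrial tRNA and rRNA, RPUSD4 had 0.08 (adjusted p = 0.201) and the rRNA methyltransferase MRM3 -0.11 (adjusted p = 0.225).

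Among 16 genes for the maintenance of mitochondrial DNA, the nuclease and helicase DNA2 had a log2 fold change of 0.10 (adjusted p = 0.157) and the single-strand binding protein SSBP1 -0.08 (adjusted p = 0.190). Among the 7 tested nuclear regulators of mitochondrial biogenesis PPRC1 had 0.07 (adjusted p = 0.109) and PPARGC1B 0.11 (adjusted p = 0.154), both coactivators of the PGC-1 family. PPRC1 stood at 154.2 to 159.9 CPM in the control and 162.8 to 167.0 CPM in the A20 siRNA samples. Of these 10 genes DNA2 passed in 1 alternative fit, that without control replicate 1 (adjusted p = 0.0479).

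**Figure D5:**
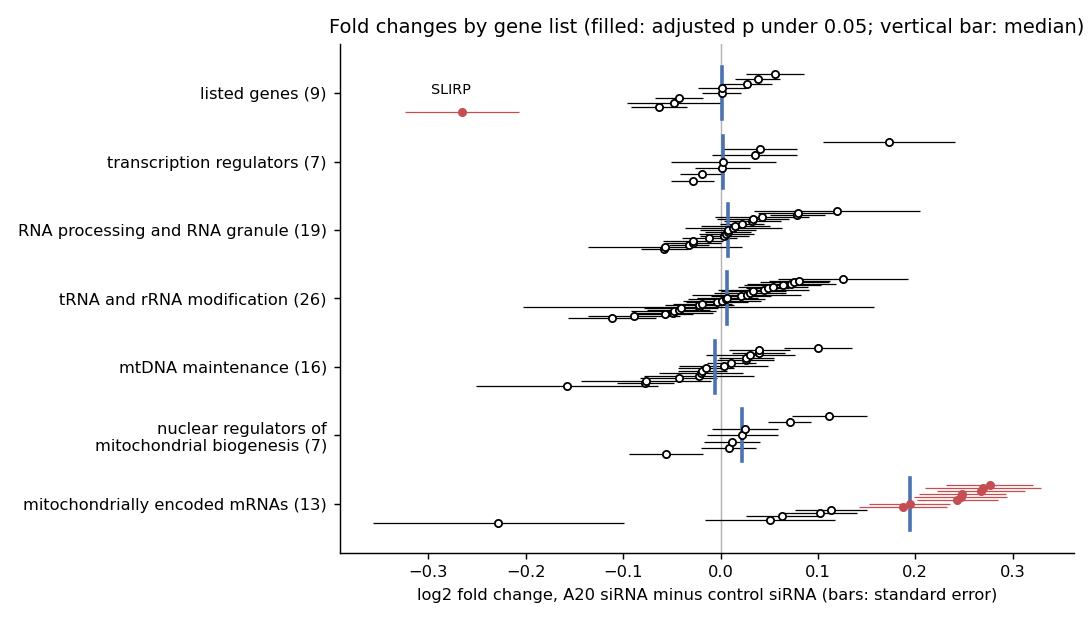
Log2 fold change, A20 siRNA minus control siRNA, with its standard error for the tested genes of each list, the number of genes in brackets. Filled red points have an adjusted p-value under 0.05 and blue bars are the medians. SLIRP lies at -0.27. The genes of the other nuclear lists lie between -0.16 and 0.17, with list medians between -0.006 and 0.022. Of the 13 mitochondrially encoded protein-coding genes 8 are filled on the higher side.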

How the data were processed

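RNAseq was analysed from 8 RKO samples, 4 with control siRNA and 4 with A20 siRNA, with groups and replicate numbers from the sample titles. Libraries were prepared with poly(A) capture. The authors trimmed reads with Trimmomatic, mapped them to GRCh38.p7 with STAR and deposited the raw counts of uniquely mapping reads per gene of a GENCODE annotation. Its release and the strand setting are not given in the sources used here. 3 counts corresponded to 0.0877 to 0.141 CPM.

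Counts were filtered with filterByExpr (minimum count 10), normalized by TMM and tested with edgeR 4.0.16 (quasi-likelihood, no covariates) in R 4.3.3, with Benjamini-Hochberg adjustment and a threshold of 0.05. Standard errors came from the fold change and the F statistic. Names, coordinates and lengths came from GENCODE 44, matched by Ensembl identifier without version (56948 of 57992 genes). The pipeline was tested on simulated data.

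The genes and lists were chosen with earlier results of these data known. Named genes were the 10 genes, TNFAIP3, the 2 genes of smallest p-value and any called gene of each list, overlapping genes, and the 3 nearest profiles to SLIRP and LRPPRC. Genes named besides these were chosen after their values were seen. The alternatives were RLE normalization, no filter, a minimum of 10 counts required of each sample, DESeq2 1.42.0, limma-voom (limma 3.58.1), a block for replicate number, correction for merged exon length and GC content (loess trend per sample, span 0.5), and each sample left out. Corrections for canonical transcript length were added after the data were seen. No pair of replicates was close enough to be one library deposited again (chi-square per degree of freedom 1.31 to 3.69).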

Additional observations from a re-analysis of the deposited data

Results flagged for a closer look

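In 22 groups of 4 samples, 1 sample stood far from the other 3 in 2 groups, where chance gives about 1.1. For MTPAP with A20 siRNA, replicate 2 lay below the others at 110.5 CPM against 115.0 to 115.6, a gap of 0.888 of the group's range. For TNFAIP3 with A20 siRNA, replicate 2 also lay below the others at 3.01 CPM against 3.40 to 3.47, a gap of 0.847 of the range.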

How the results depend on the processing

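The log2 fold change of SLIRP was negative in all 19 alternative fits, and the number of the genes called lower was 1 except for 0 with DESeq2 and 0 to 1 with 1 sample left out. LRPPRC and POLRMT, fitted at 0.0013 and 0.0015, changed sign to -0.0012 and -0.00091 with RLE normalization, -0.0031 and -0.0027 without a filter, -0.0010 and -0.00090 with DESeq2, -0.086 and -0.012 with the length correction, -0.071 and -0.022 with length and GC, -0.070 and -0.022 with the block added, -0.030 and -0.020 with canonical length, and -0.027 and -0.015 with it in protein-coding genes. The cause was not tested, and the merged exons used for LRPPRC are far longer than its canonical transcript. Leaving out 1 sample gave LRPPRC -0.0033 to 0.0025 and POLRMT -0.015 to 0.011. The median of the genes was -0.052, -0.058, -0.058, -0.030 and -0.027 under these 5 corrections in turn and -0.015 to 0.0025 with 1 sample left out. Over all genes 82 were lower and 85 higher, against 310 and 314 without a filter. There were 250 lower and 88 higher genes with the length correction, 251 and 96 with length and GC, 264 and 103 with canonical length, 176 and 100 with it in protein-coding genes, and 428 and 193 for the block with length and GC. They ranged from 6 to 430 lower and 6 to 567 higher with 1 sample left out, the most without control replicate 1 and the fewest without A20 siRNA replicate 3. Pathway genes called higher were 0, and 0 to 1 with 1 sample left out. Mitochondrially encoded protein-coding genes called higher were 8, 4 with DESeq2 and 1 to 8 with 1 sample left out. Those called lower were 0, but 1 without a filter, 1 for the block with length and GC and 0 to 1 with 1 sample left out, MT-ATP8 in each case. TNFAIP3 kept its call in every fit with an adjusted p-value, and DESeq2 gave -0.72 with none. The titles do not state that same-numbered samples are pairs, and the number was not taken as a pairing in the main fit. Same-numbered samples correlated by -0.0088 to 0.0793 in their deviations from the group means. A correlation over all tested genes cannot exclude a replicate effect on some of them. SLIRP was lower in replicates 3 and 4 than in replicates 1 and 2 in both groups. With the replicate block 212 genes were lower and 262 higher, and SLIRP was at -0.27 (adjusted p = 0.000465, edgeR).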
